A study of Mus musculus with 9 samples.

Results

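The smooth muscle genes described here are 10 genes listed by symbol: Acta2, Actg2, Myh11, Tagln, Cnn1, Des, Lmod1, Synpo2, Myocd and Smtn. They were found among the 47069 genes counted in each of 9 bulk RNA sequencing libraries, and all 10 held enough counts to be among the 18204 genes tested. The rule that picks them uses symbols and no measured value, although the list was drawn up with earlier results of these data known.

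The libraries came from frozen primary prostate tumours (3 libraries), proximal metastases in the epididymal fat (3 libraries) and distal metastases (3 libraries). All groups shared the same animals and genotype: C57BL/6 mice of about 9 to 10 months, with exon 3 of 1 Ctnnb1 allele deleted among their engineered changes. Loss of that exon stabilises beta-catenin, and no group without the alleles was included. The labels do not say which promoter drives the recombinase, and they place the distal metastases in the diaphragm in one field and in the lung in another. The samples were matched within 3 mice, without a statement of which samples share a mouse, so the library numbers used below only name libraries and p-values treat the 9 libraries as independent.

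Smooth muscle contracts when myosin filaments pull on actin filaments that are anchored at the membrane and at dense bodies. Acta2 and Actg2 encode the smooth muscle actins, Myh11 the myosin heavy chain, and Tagln, Cnn1, Smtn and Synpo2 proteins that bind actin. Lmod1 encodes a protein that starts new actin filaments, Des encodes the intermediate filament protein desmin, and Myocd encodes myocardin, the coactivator that works through serum response factor (SRF) at the CArG box. In the normal prostate these genes mark the stromal smooth muscle around the glands. Acta2 and Tagln are also made by pericytes and activated fibroblasts, and Des by skeletal and cardiac muscle, so they are not unique to smooth muscle. Bulk RNA cannot tell fewer cells of a type from less RNA per cell.

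Promoter windows were searched for the CArG box, since SRF is a known shared regulator of smooth muscle genes. RefSeq windows on GRCm38.p6, from 250 bases before to 50 bases after the annotated start, were matched for 6 of the 10 members (Acta2, Cnn1, Des, Lmod1, Smtn and Synpo2), and Actg2, Myh11, Tagln and Myocd are named only. The CArG box was searched on both strands as 2 C, 6 bases that are each A or T, and 2 G. An exact match was present in 0 of these 6 windows, against 1.63% of all 32851 promoter windows. When 1 of the 6 central bases was allowed to be C or G, a relaxation chosen after the exact result was seen, Acta2 was the member with matches, and it had 2. At least 1 such match was present in 9.98% of all windows and at least 2 in 0.822%. Of the 20 contractile partner genes described further below, 17 had a window, 6 of these held a match under the relaxed rule (Lpp, Myl6, Myl9, Pdlim3, Synm and Vcl) and 3 held an exact one. These partner counts are per gene, and Palld, Lpp, Myl6, Csrp1 and Cald1 had several windows each. They are therefore not comparable with the shares of all windows. Lpp and Myl6 also had a window without a match. The Acta2 window is shown because it was the member with matches, and the window of Myl9, the regulatory myosin light chain, because its levels ran close to those of the members. Capitals mark the matches, both windows run 5′ to 3′ along the gene's own strand, and a match is a description of letters rather than a binding site.
Acta2, chr19:34255324-34255623, minus strand: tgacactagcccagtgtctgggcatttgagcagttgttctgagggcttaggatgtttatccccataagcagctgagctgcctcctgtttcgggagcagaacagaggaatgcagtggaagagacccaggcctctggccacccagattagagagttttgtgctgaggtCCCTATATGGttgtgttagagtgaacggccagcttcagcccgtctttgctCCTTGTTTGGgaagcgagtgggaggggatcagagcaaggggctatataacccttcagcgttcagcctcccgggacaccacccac
Myl9, chr2:156775214-156775513, plus strand: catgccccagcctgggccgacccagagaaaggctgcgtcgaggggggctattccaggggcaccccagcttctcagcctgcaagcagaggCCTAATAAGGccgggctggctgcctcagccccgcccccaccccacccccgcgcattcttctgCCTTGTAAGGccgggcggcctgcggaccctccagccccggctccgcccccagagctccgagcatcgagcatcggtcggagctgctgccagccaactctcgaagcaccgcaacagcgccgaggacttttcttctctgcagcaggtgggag
The Acta2 matches began 84 and 34 bases before the start. Those of Myl9 began 161 bases before the start, where the match was exact, and 99 bases before it.

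Total counts ranged from 28334730 to 40408723 per library, so 1 CPM, the unit of level used here, stood for about 28.3 to 40.4 counts before scaling. CPM are counts scaled to a common library size after TMM adjustment (trimmed mean of M values). Some libraries stood apart in their cell markers, and these values accompany the member results. Distal 2 and distal 3 held 836 and 1106 CPM of 15 skeletal muscle genes, against 8.94 to 14.7 CPM in the other 7 libraries. Primary 3 held 7501 CPM of 7 seminal vesicle genes, against 2.23 to 29.4 CPM elsewhere, and 1905 CPM of 6 basal and myoepithelial genes, against 45.0 to 361 CPM elsewhere. The epithelial list summed to 17358 CPM in primary 2 and to 1950 to 5629 CPM elsewhere. The prostate identity list summed to 246 to 859 CPM in primary tumours and 145 to 183 CPM in metastases. Its secretory gene Pbsn, which encodes probasin, was at 0.483, 211 and 11.8 CPM in primary 1, 2 and 3, at 0.0734 to 0.888 CPM in the proximal metastases, and at 0 counts in distal 2 and 3.

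The smooth muscle genes were detected in all 9 libraries, with no member at 0 counts anywhere, and their summed level varied more inside the primary group than between group medians. The sum over the 10 genes was 464, 95.0 and 250 CPM in primary 1, 2 and 3, 149, 232 and 108 CPM in proximal 1, 2 and 3, and 229, 314 and 433 CPM in distal 1, 2 and 3. Primary 1 was the highest and primary 2 the lowest of all 9 libraries, so the primary tumours enclosed every metastasis. The lowest counts behind any member value were 15 for Myocd, 21 for Lmod1 and 22 for Cnn1.

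**Figure D1:**
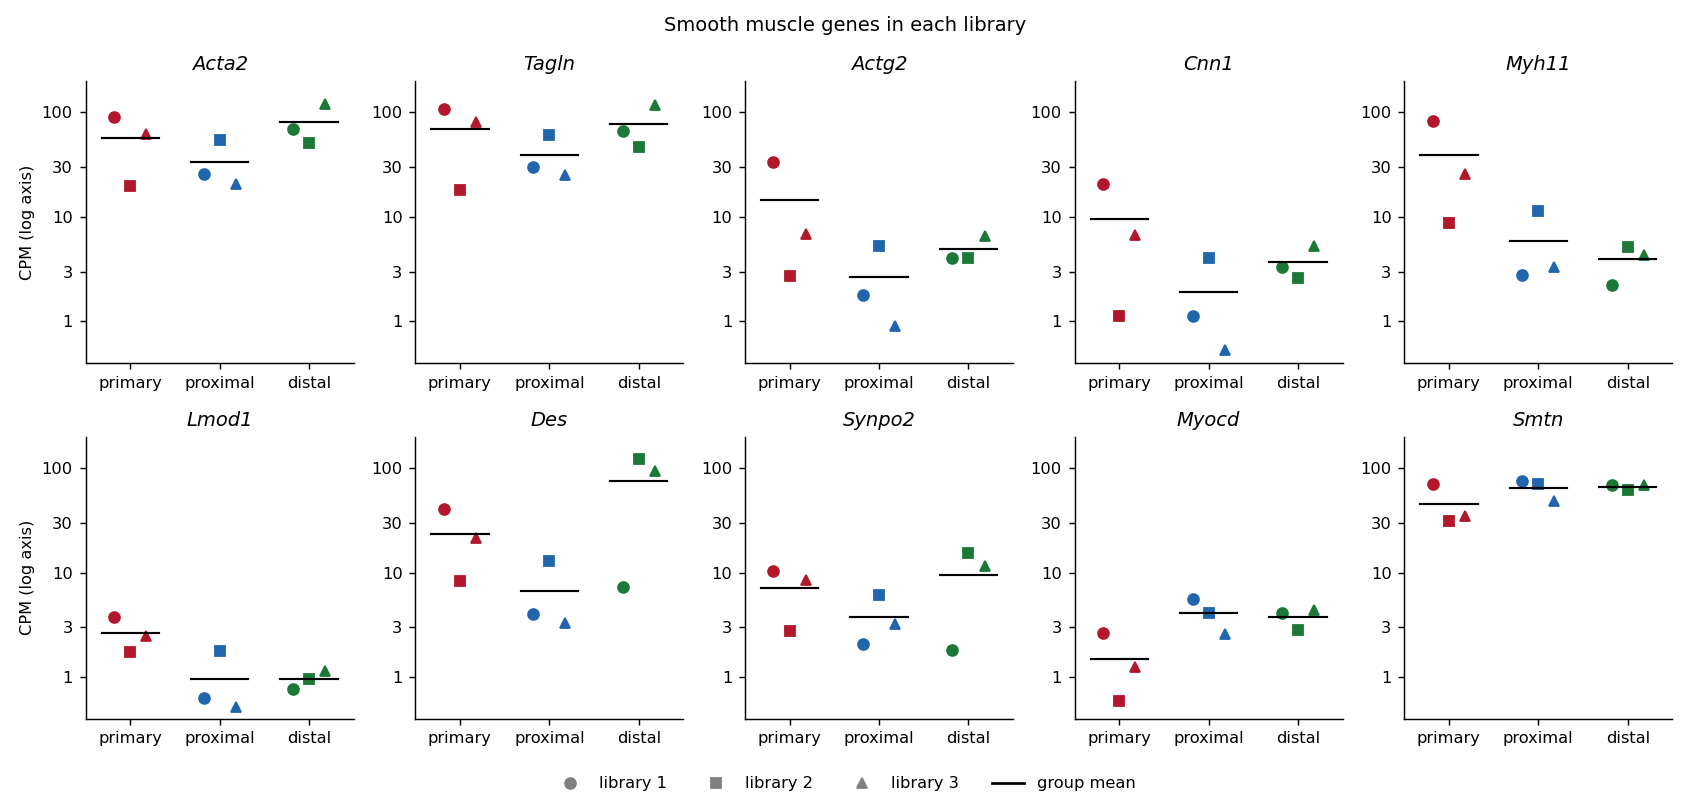
Expression of the 10 smooth muscle genes in CPM on a log axis, by group, with 1 point per library and a bar at the group mean. Primary libraries spread widely (Cnn1 from 1.13 to 20.8 CPM), Myh11 in the distal metastases lies below all primary points, and Des has 2 high distal points at 93.3 and 123 CPM.

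Per kilobase of exon, the transcripts of Tagln and Acta2 stood highest in every group. Tagln averaged 34.8 ± 23.4 CPM per kilobase in primary tumours, 19.6 ± 9.74 in proximal metastases and 38.8 ± 18.0 in distal ones (SD, n = 3 each). Acta2 averaged 26.1 ± 16.2, 15.4 ± 8.43 and 36.8 ± 16.3 CPM per kilobase in the same order. Their difference was smaller than their spread in each group. Smtn, whose product smoothelin binds actin, came next, at 10.4 ± 4.82 CPM per kilobase in primary tumours and 14.7 ± 3.32 in proximal metastases. Des held rank 5 in primary (6.24 ± 4.36) and rank 3 in distal libraries (19.8 ± 16.0). Myh11 held rank 6 in primary, at 5.13 ± 5.08 CPM per kilobase, and rank 9 in distal libraries, at 0.519 ± 0.201. Myocd, Lmod1 and Synpo2 averaged at most 0.727 CPM per kilobase in every group. Within that low range the primary means of Lmod1 (0.672 ± 0.261) and Synpo2 (0.547 ± 0.301) did not differ beyond their spread.

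Comparison of the metastases with the primary tumours asked whether the smooth muscle programme of the tumour in the prostate was retained at the metastatic sites. By edgeR's quasi-likelihood test across all genes, 0 of the 10 members were called in proximal against primary, 0 in distal against primary and 0 in distal against proximal, at an adjusted p below 0.05. Across all genes tested, 0.0494%, 0.0879% and 0.0% were called in those 3 comparisons. At an unadjusted p below 0.05 there were 4, 3 and 1 members, where 18.2%, 17.4% and 2.06% of all genes reached it. In proximal against primary, 8 of the 10 members had negative log2 fold changes, and the members' median was -1.19 beside -0.05 for all genes tested. In distal against primary, 6 were positive and 4 negative, with a median of 0.28 beside -0.03. In distal against proximal, 7 were positive and 3 negative, with a median of 0.93 beside -0.01. The first 2 of these comparisons share the 3 primary libraries, and each pair of comparisons shares a group. Libraries of the compared groups did not overlap for 0 members in proximal against primary, where 10.7% of all genes lay wholly lower and 8.68% wholly higher. In distal against primary, 2 members lay wholly lower (Myh11 and Lmod1) and 1 wholly higher (Myocd), beside 10.4% and 8.4% of all genes. The count was 0 in distal against proximal, beside 3.6% and 4.03% of all genes. The fit took 1 spread per gene for all groups, although the primary libraries had the widest fold range of the 3 groups in 7 of the 10 members.

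**Figure D2:**
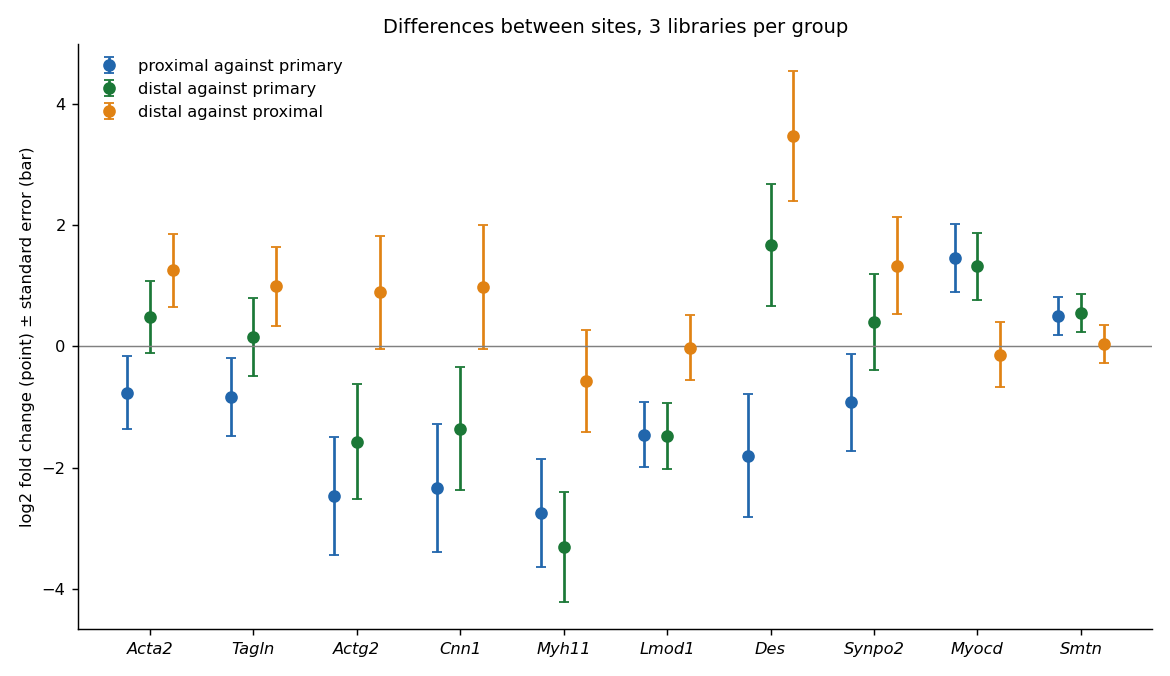
Log2 fold changes of the 10 members in the 3 comparisons, with error bars of 1 SE from edgeR's quasi-likelihood fit. Myh11 has the most negative values against primary (-2.74 proximal and -3.31 distal), Myocd lies above 0 in both, and Des is at 3.47 in distal against proximal; none passes the adjusted threshold.

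With all 9 libraries in the fit, the myosin heavy chain had the largest differences from primary among the members. Myh11 (ENSMUSG00000018830, chromosome 16, 14194535 to 14291372 on GRCm38) was at 82.5, 8.71 and 25.8 CPM in primary 1, 2 and 3. It was at 2.77, 11.4 and 3.33 CPM in proximal 1, 2 and 3, and at 2.25, 5.22 and 4.37 CPM in distal 1, 2 and 3. All 3 distal libraries lay below all 3 primary ones, whereas proximal 2 lay above primary 2. Libraries that did not overlap in this direction were found for 10.4% of all genes in distal against primary. The log2 fold change was -2.74 (SE 0.89) for proximal and -3.31 (SE 0.91) for distal against primary, with edgeR adjusted p = 0.198 and 0.161. Myh11 passed with DESeq2 (adjusted p = 0.0137 and 0.00164) and with voom sample quality weights in limma (adjusted p = 0.0254 and 0.0237), so its call depends on the method. Of the 18204 genes tested, DESeq2 called 1486 in proximal and 1444 in distal against primary, and quality weights called 3607 and 3126. Without primary 1 its log2 fold changes were -1.55 and -2.11, smaller in size than that of Myocd (2.17) in the proximal and that of Des (2.35) in the distal comparison.

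Of the smooth muscle actins, Actg2 had the more negative fold changes against primary. Acta2 (ENSMUSG00000035783, chromosome 19, 34241090 to 34255590), the actin of vascular smooth muscle and myofibroblasts, was at 90.5, 19.6 and 62.1 CPM in primary 1, 2 and 3. It was at 25.8, 55.1 and 20.9 CPM in the proximal and at 69.9, 51.5 and 121 CPM in the distal libraries. The groups overlapped, with log2 fold changes of -0.76 (SE 0.60, edgeR adjusted p = 0.440) proximal and 0.49 (SE 0.59, adjusted p = 0.617) distal against primary. Actg2 (ENSMUSG00000059430, chromosome 6, 83512905 to 83536265), the actin of visceral smooth muscle, was at 33.9, 2.73 and 6.86 CPM in primary 1, 2 and 3. It was at 1.78, 5.23 and 0.906 CPM in the proximal and at 4.08, 4.07 and 6.54 CPM in the distal libraries. Primary 1 and, by a small margin, primary 3 stood above all metastases, and primary 2 lay within their range. The log2 fold change was -2.46 (SE 0.98, edgeR adjusted p = 0.252) proximal and -1.57 (SE 0.94, adjusted p = 0.372) distal against primary, and without primary 1 these values were -0.85 and 0.043.

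Tagln (ENSMUSG00000032085, chromosome 9, 45929619 to 45936058), which encodes transgelin, followed Acta2 from library to library. It was at 109, 18.0 and 80.4 CPM in primary 1, 2 and 3, at 30.2, 61.0 and 25.3 CPM in proximal 1, 2 and 3, and at 67.1, 47.3 and 117 CPM in distal 1, 2 and 3. Primary 2 was the lowest and distal 3 the highest of all 9 libraries, and the groups overlapped. Its log2 fold changes against primary were -0.83 (SE 0.65, edgeR adjusted p = 0.435) proximal and 0.16 (SE 0.64, adjusted p = 0.890) distal. Of the 50-base words of its transcripts, 58.3% were also found in transcripts of an antisense gene or of Pcsk7, and the strand setting of the counting is not given in the sources used here. Pcsk7 itself was at 35.3 to 51.5 CPM in every library.

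Cnn1 (ENSMUSG00000001349, chromosome 9, 22099216 to 22109630), which encodes calponin, an inhibitor of the myosin ATPase, was at 20.8, 1.13 and 6.79 CPM in primary 1, 2 and 3. It was at 1.12, 4.03 and 0.539 CPM in the proximal and at 3.33, 2.62 and 5.30 CPM in the distal libraries. The order of its 9 libraries was identical to that of Actg2. Its log2 fold changes were -2.34 (SE 1.05, edgeR adjusted p = 0.283) and -1.36 (SE 1.02, adjusted p = 0.442) in the proximal and distal comparisons with primary. Without primary 1 they were -1.05 and -0.070. Lmod1 (ENSMUSG00000048096, chromosome 1, 135324807 to 135368065), leiomodin, was at 3.76, 1.72 and 2.48 CPM in primary 1, 2 and 3. It was at 0.627, 1.76 and 0.514 CPM in the proximal and at 0.775, 0.953 and 1.13 CPM in the distal libraries. The distal libraries lay below all primary ones, and proximal 2 lay just above primary 2. Its log2 fold changes were -1.45 (SE 0.54, edgeR adjusted p = 0.234) and -1.48 (SE 0.54, adjusted p = 0.235).

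Desmin and synaptopodin 2 showed another arrangement, in which distal 2 and distal 3 were the highest libraries. Des (ENSMUSG00000026208, chromosome 1, 75360329 to 75368579) was at 40.7, 8.24 and 21.3 CPM in primary 1, 2 and 3. It was at 3.97, 12.96 and 3.26 CPM in the proximal and at 7.30, 123 and 93.3 CPM in the distal libraries. Synpo2 (ENSMUSG00000050315, chromosome 3, 123076519 to 123236149), an actin-bundling protein of dense bodies and Z-discs, was at 10.3, 2.73 and 8.49 CPM in primary 1, 2 and 3. It was at 2.06, 6.07 and 3.21 CPM in the proximal and at 1.80, 15.3 and 11.4 CPM in the distal libraries. Distal 1 was below every primary library for both genes. Against primary, Des had log2 fold changes of -1.80 (SE 1.01, edgeR adjusted p = 0.335) proximal and 1.67 (SE 1.002, adjusted p = 0.371) distal. Those of Synpo2 were -0.92 (SE 0.80, edgeR adjusted p = 0.478) and 0.41 (SE 0.79, adjusted p = 0.759). Des had a log2 fold change of 3.47 in distal against proximal (SE 1.08, edgeR adjusted p = 0.99999), and DESeq2 called it (adjusted p = 0.0428). DESeq2 called 85 of 18204 genes in that comparison.

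The same 2 distal libraries were those with skeletal muscle transcripts. Acta1, the skeletal muscle actin, was at 307 and 408 CPM in distal 2 and 3 and at 0.441 to 3.43 CPM in the other 7 libraries. None of the 15 skeletal muscle genes was at 0 counts in distal 2 or 3, whereas 3 to 5 of them were at 0 in each other library, among them Tnnc2 in all 7. Cardiac muscle genes summed to 3.98 to 18.5 CPM, with the maximum in primary 2. Without distal 2 and distal 3, an alternative added after seeing the data, distal 1 was the only distal library. The log2 fold change of Des was then -1.66 in distal against primary, where it was 1.67 with all libraries. That of Synpo2 was -1.97 in place of 0.41. Since distal 1 lay below every primary library for both genes, these negative signs were fixed in advance. In distal against proximal Des was then at 0.12 and Synpo2 at -1.07. The part of skeletal muscle RNA in these levels was not tested. The distal libraries spanned 1.46-fold for Lmod1, 1.60-fold for Actg2, 2.02-fold for Cnn1 and 2.32-fold for Myh11, against 16.8-fold for Des.

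**Figure D3:**
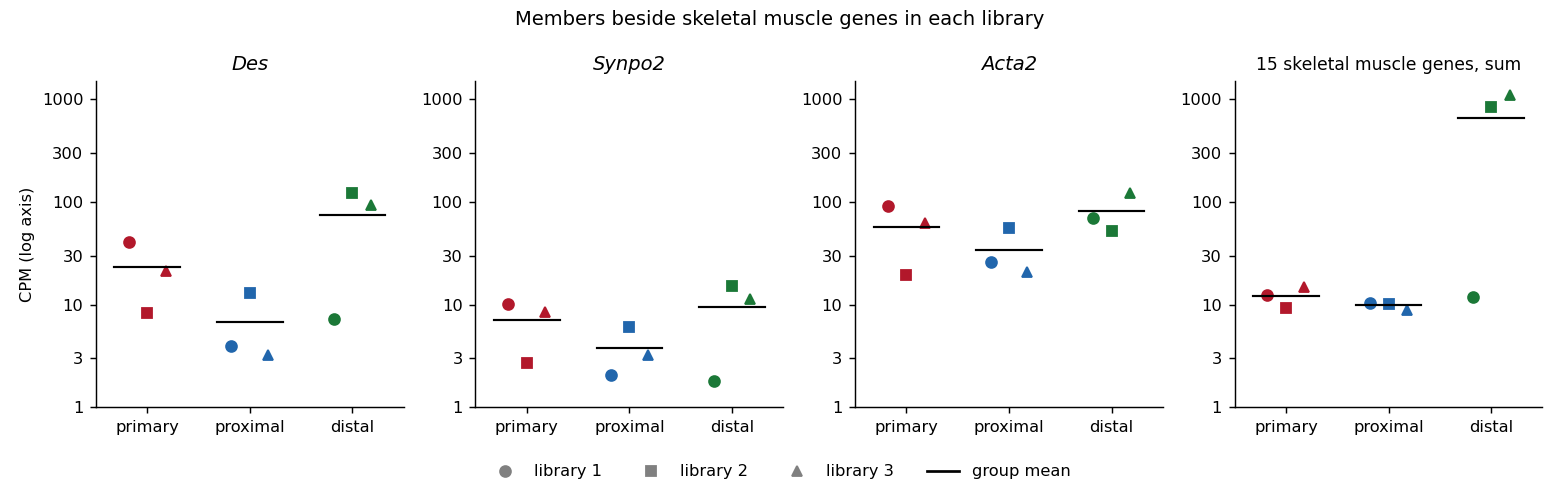
Des, Synpo2 and Acta2 beside the summed level of 15 skeletal muscle genes, in CPM on log axes, with 1 point per library and a bar at the group mean. Distal 2 and 3 are high for the skeletal muscle sum (836 and 1106 CPM) and for Des and Synpo2, and distal 1 is not (11.8 CPM of the sum).

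Myocardin and smoothelin had positive fold changes against primary at both sites. Myocd (ENSMUSG00000020542, chromosome 11, 65176561 to 65269989) was at 2.63, 0.586 and 1.26 CPM in primary 1, 2 and 3. It was at 5.64, 4.13 and 2.60 CPM in the proximal and at 4.10, 2.83 and 4.33 CPM in the distal libraries. All 3 distal libraries lay above all primary ones, an arrangement found for 8.4% of all genes, while proximal 3 lay just below primary 1. Its log2 fold changes were 1.46 (SE 0.55, edgeR adjusted p = 0.241) and 1.32 (SE 0.55, adjusted p = 0.274). Smtn (ENSMUSG00000020439, chromosome 11, 3517523 to 3540612) was at 69.6, 31.4 and 35.0 CPM in primary 1, 2 and 3. It was at 75.0, 70.6 and 47.9 CPM in the proximal and at 68.8, 61.9 and 68.6 CPM in the distal libraries. Primary 1 was inside the range of the metastases for Smtn, and primary 2 and 3 were below it. Its log2 fold changes were 0.51 (SE 0.31, edgeR adjusted p = 0.360) and 0.55 (SE 0.31, adjusted p = 0.357).

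Leaving out primary 1 added calls for both genes. Without it, edgeR called Myocd at log2 fold changes of 2.17 (adjusted p = 0.0197) proximal and 2.04 (adjusted p = 0.0256) distal against primary. Smtn was then called at 0.98 (adjusted p = 0.0142) and 1.02 (adjusted p = 0.0134). That setting called 5447 and 5203 of the 19009 genes tested there, and 2 of the 10 members in each comparison. The share of members called was therefore no higher than the share of all genes tested. When primary 1 was instead the sole primary library kept, another alternative added after seeing the data, the Smtn values were -0.091 and -0.050.

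Acta2 served as an internal reference, because a ratio of counts inside a library does not depend on how the libraries were scaled. This measure was chosen after the values were seen. The Tagln to Acta2 ratio stayed between 0.917 and 1.29 in all 9 libraries, a 1.41-fold range, although Acta2 itself varied 6.15-fold and Tagln 6.48-fold. The Myh11 to Acta2 ratio was 0.912, 0.443 and 0.415 in primary 1, 2 and 3. It was 0.107, 0.207 and 0.160 in the proximal and 0.0322, 0.101 and 0.0362 in the distal libraries. The 3 groups did not overlap for Myh11, and the distal ratios were below the proximal ones. Lmod1 was arranged the same way, at 0.0399 to 0.0875 in primary, 0.0243 to 0.0320 in proximal and 0.00938 to 0.0185 in distal libraries. The step between the metastatic sites holds for the ratios and not for the levels. In distal against proximal, the log2 fold change from CPM was -0.02 for Lmod1, -0.56 for Myh11 and 1.25 for Acta2 itself. The distal and proximal libraries of each gene overlapped. Actg2 was at 0.11 to 0.375 of Acta2 in primary tumours, 0.0434 to 0.0950 in proximal and 0.0541 to 0.0791 in distal metastases.

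Myh11, Lmod1 and Actg2 had lower ratios to Acta2 in all 6 metastases than in all 3 primary libraries, an arrangement found for 1.29% of all genes. The reference gene was chosen after the values were seen, so this share and those below are descriptions. These 3 members had similar profiles (pairwise r of 0.837 to 0.967) and are not separate observations. In CPM, the proximal libraries of each overlapped the primary ones. Cnn1 was below the primary range (0.0577 to 0.230) in the distal libraries (0.0439 to 0.0509) and overlapped it in the proximal ones (0.0258 to 0.0732). Des was below the primary range (0.343 to 0.450) in the proximal libraries (0.154 to 0.235) and, among the distal ones, in distal 1 alone (0.104). Myocd had the opposite arrangement, at 0.0202 to 0.0298 of Acta2 in primary libraries and 0.0359 to 0.219 in the 6 metastases, which 0.786% of all genes showed. The ratio of Smtn overlapped between primary (0.563 to 1.60) and both metastatic groups. In an exact two-sided permutation test of the log2 ratios, Myh11, Lmod1, Actg2 and Myocd each had p = 0.1 against primary at both sites, the smallest that 3 against 3 can give. Of the 9 members with a ratio, 4 lay wholly lower in proximal than in primary libraries (1.48% of all genes) and 4 in distal than in primary (6.16%). Myocd was the 1 member wholly higher in each (13.7% and 0.895% of all genes). Between the sites, 5 members had ratios wholly lower in distal than in proximal libraries, where 29.6% of all genes did. Over the 27 permutation tests the lowest Benjamini-Hochberg adjusted exact p was 0.18. Because the smallest exact p is 0.1 before adjustment, none of these tests could pass the threshold of 0.05, whatever the values.

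**Figure D4:**
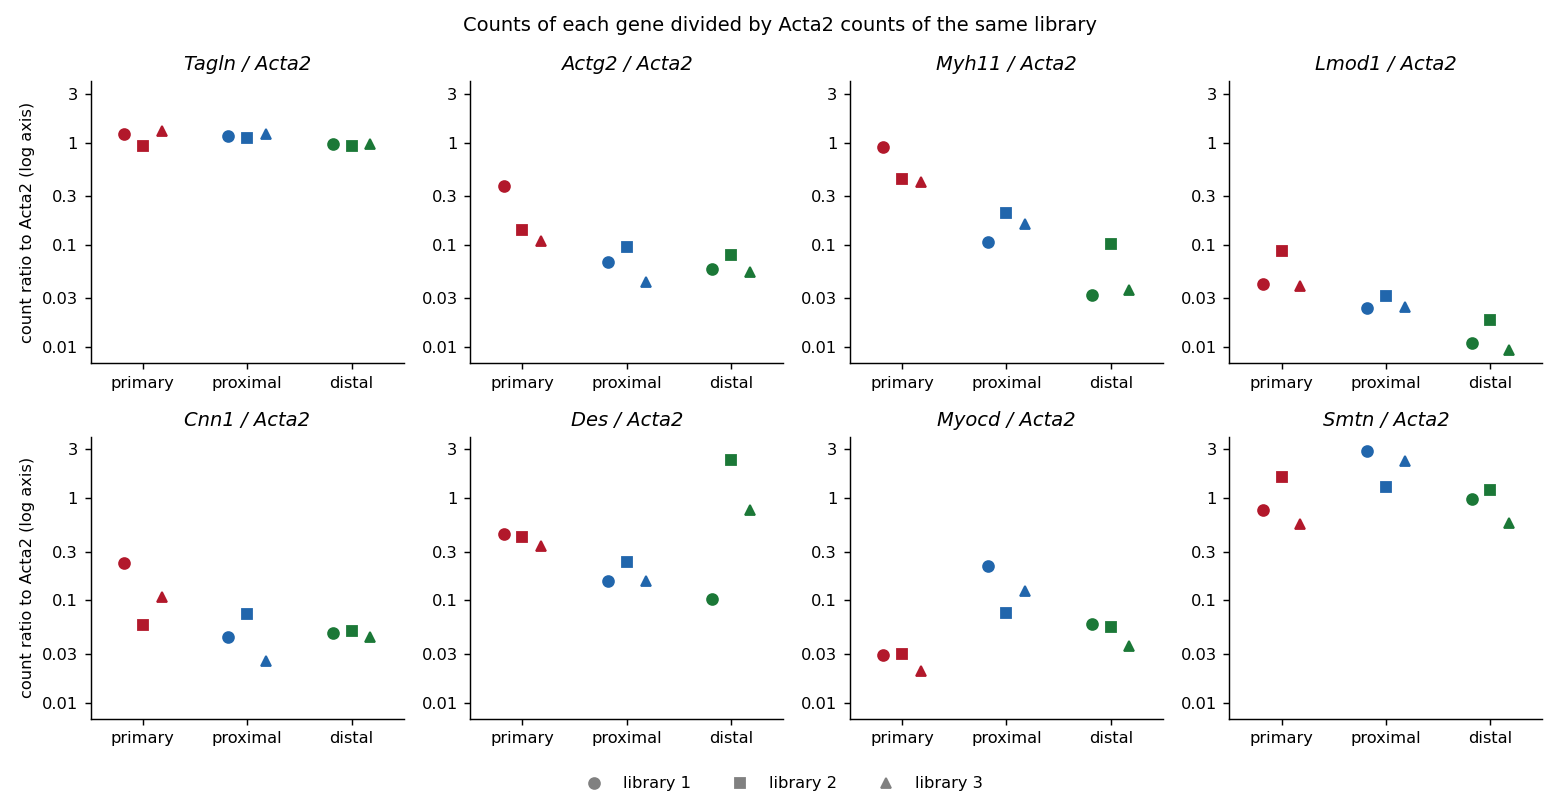
Counts of 8 members divided by Acta2 counts of the same library, on a shared log axis, with 1 point per library. The ratio of Tagln stays near 1 throughout, and those of Myh11 and Lmod1 step down from primary through proximal to distal. In CPM, the proximal and distal libraries of Myh11 and Lmod1 overlapped. The ratio of Myocd is above its primary values (0.0202 to 0.0298) in all 6 metastases.

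Among themselves the members formed groups of similar profile. Over the 9 libraries, Pearson's r of log2(CPM + 1) was 0.979 between Acta2 and Tagln and 0.351 between Acta2 and Myh11, the latter being the lowest among Acta2, Actg2, Myh11, Tagln and Cnn1. Myocd had r between -0.407 and 0.333 with those 5 genes, and 0.935 with Smtn. Des and Synpo2 had r = 0.923 with each other. These are descriptions over libraries that share animals and carry no p.

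The wider contractile apparatus was read from 20 partner genes, the tropomyosins, light chains, crosslinkers and adhesion proteins that work with the members. None of the 20 was called by edgeR in any comparison. In proximal against primary 9 had positive and 11 negative log2 fold changes, with a median of -0.40, and in distal against primary the counts were again 9 and 11, with a median of -0.02. In distal against proximal 17 were positive and 3 negative, with a median of 0.24. The most abundant was Flna, the actin crosslinker filamin A, at 373 to 730 CPM over the 9 libraries and a log2 fold change of -0.36 proximal and -0.15 distal against primary. Tpm4, a tropomyosin made in many cell types, was at 290 to 740 CPM with the maximum in primary 2, and the actin crosslinker Actn1 at 230 to 420 CPM.

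A few partners chosen after their values were seen resembled individual members. Tpm2, the muscle beta-tropomyosin, was at 37.6, 35.3 and 63.4 CPM in primary 1, 2 and 3. It was at 5.85, 14.1 and 6.39 CPM in the proximal and at 13.3, 84.7 and 124 CPM in the distal libraries, high in distal 2 and 3 as Des was. The intermediate filament gene Synm was at 8.47 to 18.0 CPM in primary and 3.47 to 5.67 CPM in proximal libraries, which did not overlap (log2 fold change -1.59, edgeR adjusted p = 0.137). In proximal against primary, 4 of the 20 partners lay wholly lower, beside 10.7% of all genes.

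Of 12 regulators of the smooth muscle programme, 1 was called. Klf4, a zinc-finger factor known to repress smooth muscle genes and also a gene of epithelial differentiation, was at 64.3, 51.1 and 88.0 CPM in primary 1, 2 and 3. It was at 14.5 to 15.6 CPM in the proximal and 13.9 to 17.5 CPM in the distal libraries. It fell by 2.18 (edgeR adjusted p = 0.0295) and by 2.08 (adjusted p = 0.0378) on the log2 scale. Leaving out each of the 9 libraries in turn kept the call in 2 of 9 fits for proximal and 3 of 9 for distal, with adjusted p up to 0.274 and 0.313. All 6 genes of the epithelial list also had negative fold changes against primary at both sites, 0 of them called. In primary 1 that list summed to 2909 CPM, beside 1950 to 2932 CPM in the metastases. Of its genes, Epcam, Krt8 and Krt19 in primary 1 were above all metastases, as Klf4 was. Krt18, Cdh1 and Cldn4 in primary 1 were inside the range of the metastases. The part of epithelial cells in the Klf4 difference was not tested.

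SRF and its coactivators were not called in any of the 3 comparisons. Srf was at 60.7 to 84.8 CPM over the 9 libraries, with log2 fold changes of -0.05 (SE 0.15) proximal and 0.04 (SE 0.15) distal against primary. Mrtfb, a myocardin-related coactivator, was at 61.7 to 121 CPM (log2 fold change -0.33 proximal, SE 0.22, and -0.41 distal, SE 0.22). The related Mrtfa, added after its values were seen, had log2 fold changes of -0.54 (SE 0.18) proximal and -0.48 (SE 0.18) distal. Its proximal libraries (29.2 to 32.1 CPM) lay wholly below the primary ones (34.6 to 52.7 CPM), as 10.7% of all genes did, and its distal libraries overlapped them. Csrp2, a LIM protein of smooth muscle, was at 933 CPM in primary 2 and at 253 to 356 CPM elsewhere. Counted over the list, 3 of 12 regulators were positive and 9 negative in proximal against primary (median -0.29), and 5 and 7 in distal against primary (median -0.29).

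Genes that signal for contraction, a list of 20 with 19 tested, had 0 calls in each comparison. In proximal against primary 10 were positive and 9 negative (median 0.08), in distal against primary likewise 10 and 9 (median 0.07), and in distal against proximal 9 and 10 (median -0.01). Rock2 and Rock1, the kinases that restrain myosin phosphatase, were at 144 to 249 and at 82.9 to 133 CPM, and the phosphatase targeting subunit Ppp1r12a at 62.7 to 79.3 CPM. Channel genes, chosen after their values were seen, spread widely inside the primary group. Cacna1c, the L-type calcium channel, was at 33.3, 2.30 and 8.42 CPM in primary 1, 2 and 3 and at 34.5 to 46.3 CPM in all 6 metastases. Kcnma1, the pore of the large-conductance potassium channel, was at 2.17, 84.5 and 31.0 CPM in primary 1, 2 and 3 and at 0.122 to 4.53 CPM in the metastases. Its smooth muscle beta subunit Kcnmb1 was at 9.51, 0.898 and 2.003 CPM in primary 1, 2 and 3 and at 8.84 to 13.2 CPM in the metastases. For Cacna1c and Kcnmb1, as for Smtn, primary 1 was nearer to the metastases than to primary 2 and 3.

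Markers of other cells that make smooth muscle genes stood beside these levels as follows. The 8 pericyte genes summed to 195 to 217 CPM in primary, 135 to 173 in proximal and 135 to 188 in distal libraries. The 10 fibroblast genes summed to 2929, 1037 and 1693 CPM in primary 1, 2 and 3, to 1238 to 2706 CPM in proximal and 1620 to 2176 CPM in distal libraries, so primary 1 was highest and primary 2 lowest, as for the smooth muscle sum. The 10 endothelial genes summed to 328 to 419 CPM in primary, 202 to 270 in proximal and 184 to 306 in distal libraries. The 6 adipocyte genes had their group maximum in primary 1 (190 CPM), proximal 2 (287 CPM) and distal 3 (303 CPM), the libraries in which Acta2 and Tagln were also highest in their group. The 5 urothelial genes summed to 142 to 381 CPM, and Upk1a among them was called in distal against primary (edgeR adjusted p = 0.0391). None of the pericyte, fibroblast or endothelial genes was at 0 counts in any library. The part of these cells in the members' levels was not tested.

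Among the other tested genes of at least 5 CPM on average, the 8 with profiles most like the members' mean profile were named. That profile was the mean of log2(CPM + 1) standardised within each member. Genes with predicted or clone-based names, or without a symbol, were left out of the ranking. Pearson's r over the 9 libraries was 0.964 for Fam198b, 0.941 for Tspan18, 0.941 for Cd38, 0.938 for Myl9, 0.937 for Mlx, 0.929 for Atp2a3, 0.924 for St6galnac4 and 0.903 for Lox. Without the 2 libraries farthest from the median of the mean profile (primary 2 and proximal 3), these values ranged from 0.778 for Lox to 0.946 for Atp2a3. Myl9 was at 32.4, 5.82 and 14.4 CPM in primary 1, 2 and 3, at 4.18, 16.0 and 5.26 CPM in the proximal and at 11.7, 11.1 and 30.9 CPM in the distal libraries. Lox, the collagen-crosslinking lysyl oxidase, was at 77.4, 14.8 and 53.9 CPM in primary 1, 2 and 3 and at 15.6 to 58.8 CPM in the metastases.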

How the data were processed

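RNA from 9 mouse libraries (3 primary, 3 proximal, 3 distal) was measured as counts. The deposited files hold the authors' raw whole-number counts per Ensembl gene, 1 file per library. The submitters' processing notes list HTSeq 0.6.0, TopHat2 2.1.0, DESeq2 1.14.1, Bowtie2 2.2.6.0, FastQC 0.11.4 and R 3.2.3, with build GRCm38.p3. Neither strand setting nor annotation release is given in the sources used here. Symbols were matched for 46488 of 47069 identifiers, and positions and exon lengths come from GENCODE on GRCm38. One further engineered allele is not reported here.

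Genes passing edgeR's filterByExpr (minimum count 10, minimum total 15) were tested with edgeR 4.0.16's robust quasi-likelihood F-test in R 4.3.3: 18204 passed and 28865 did not. All 9 libraries entered 1 fit with TMM scaling and 6 residual degrees of freedom, and p-values were Benjamini-Hochberg adjusted over all tested genes. SE is the absolute log2 fold change over the square root of F. The scripts were tested on simulated data. Alternatives were median-ratio factors, library totals, DESeq2 1.42.0, limma 3.58.1 voom with and without quality weights, no filter, no robust shrinkage, the compared libraries alone and leaving out each library. Groups without certain libraries were added after seeing the data.

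Named were all 10 members, up to 4 called genes of each other list filled up to 3 by mean CPM, and the 8 genes most like the members. Cell type lists are given by summed CPM and genes at 0. The members and lists were chosen with earlier results of these data known.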

Additional observations from a re-analysis of the deposited data

How the results depend on the processing

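Of 570 member values recomputed under the alternatives, 538 kept their direction and side of the threshold, 9 gained a call and 23 changed sign. The main fit called 0 members, so no call could be lost and no sign change could involve a value called there. No paired analysis was possible because the labels do not say which samples share a mouse. Counts of genes called, against 9 in proximal and 16 in distal against primary, depended on the method. For proximal they were 15 with median-ratio factors, 1486 with DESeq2, 1 with limma-voom, 3607 with voom quality weights, 26 without a filter, 22 without robust shrinkage and 0 with the compared libraries alone. For distal they were 10 with library totals, 1444 with DESeq2, 1 with limma-voom, 3126 with quality weights and 0 with the compared libraries alone. Leaving out each library gave 0 to 5447 and 0 to 5203, with both maxima without primary 1, and for distal 35 without distal 1 and 26 without primary 2. Without distal 2 and 3 the counts were 0 and 0, and without primary 2 and 3 they were 58 and 60. In distal against proximal, edgeR called 0 (375 at an unadjusted p below 0.05), DESeq2 85, and leaving out each library 0 to 38, the maximum without distal 1. Members called were 1, 1 and 1 with DESeq2, 1, 1 and 0 with quality weights, and 0 to 2 against primary when each library was left out, the 2 being Myocd and Smtn without primary 1.

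The sign changes were as follows. In distal against primary, quality weights gave -0.14 for Tagln and -0.41 for Synpo2. Leaving out 1 library gave 0.043 for Actg2 (without primary 1), -0.30 and -0.27 for Tagln (without primary 2, without distal 3) and -0.11 for Synpo2 (without distal 2). Without distal 2 and 3, Tagln was at -0.02, Des at -1.66 and Synpo2 at -1.97. Without primary 2 and 3, Acta2 was at -0.15, Tagln at -0.48, Synpo2 at -0.093 and Smtn at -0.050, and Smtn was at -0.091 in proximal against primary. In distal against proximal, Lmod1 was at 0.18 (voom), 0.19 (quality weights), 0.73 (without proximal 2) and 0.11 (without distal 1). Myocd was at 0.17 and 0.03 (without proximal 1, without distal 2), Myh11 at 0.37 (without proximal 2), Smtn at -0.13 (without proximal 3) and Synpo2 at -1.07 (without distal 2 and 3). Over all alternatives, these values reached 0.98 (proximal) and 1.02 (distal against primary) for Smtn. In distal against primary they reached 0.996 for Acta2, -2.78 for Actg2, 0.66 for Tagln, 2.35 for Des and 0.91 for Synpo2. In distal against proximal they reached -1.37 for Myh11, -0.32 for Lmod1, 1.85 for Synpo2 and -0.38 for Myocd. The cause was not tested. With 1 library left in a group, its spread is assumed to be that of the other groups. Depth limits Myocd, Lmod1 and Cnn1 most, at 15 to 22 counts in their lowest libraries.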

Other observations

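Myocd, chosen after its values were seen, had its own nearest profiles among tested genes of at least 5 CPM on average, with predicted and clone-based names left out. They were Atpaf1, a mitochondrial ATP synthase assembly factor (r = 0.988 over the 9 libraries), and Camk1d, a calmodulin-dependent kinase (r = 0.986). Neither was on a smooth muscle list.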
